A study of Rattus norvegicus with 35 samples.

Results

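The cytochrome P450 genes are described here in the olfactory epithelium of Brown Norway rats at 3 ages. They were found by name: every probe on the array whose gene name is Cyp followed by a family number was taken, apart from control spots. This gave 79 transcripts, each read by 1 kind of 60-base oligonucleotide, of 41012 transcripts on the array, and they stand for 67 genes. Of the 79, 63 could be given the current symbol through their accession (RefSeq). Several array names changed with it, among them Cyp2f2 to Cyp2f4, Cyp2a3a to Cyp2a3, Cyp2b13 to Cyp2b21 and Cyp3a13 to Cyp3a9. No probe carried the name Cyp2b1. Where 2 or more transcripts stand for a gene, the gene is shown by the transcript with the highest mean level.

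Cytochrome P450 enzymes are heme proteins of the endoplasmic reticulum or the mitochondrion that add oxygen to small lipophilic molecules, with electrons passed on from NADPH by a reductase. Families 1 to 4 act mostly on foreign compounds, fatty acids and eicosanoids, while others make or break down steroid hormones, bile acids, vitamin D and retinoic acid. The olfactory mucosa is known for a P450 content that rivals that of the liver. There the enzymes sit mainly in the sustentacular cells, which surround the olfactory neurons, and in the Bowman's glands beneath them, and they oxidise odorants and inhaled toxicants. Cyp2g1 and Cyp2a3 are classical forms of this tissue.

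The study compared the olfactory epithelium at birth, in adulthood and in old age. Newborn pups of 3 to 5 days and unknown sex came from 4 litters, L1 with 4 pups and L2, L3 and L4 with 5 each, and each pup gave 1 array of 1 side of the nose. The 4 adult rats were males of 9 weeks and the 4 old rats males of 22 months, each with 1 array for each side (8 arrays a group), which were averaged. All rats were of this 1 inbred strain. Since only males were used at the later ages, a part of sex in the differences from newborn rats cannot be told apart from age.

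A level is the log2 of the background-subtracted signal over the median of its array, so that a transcript at the array median has the level 0. Signals at or under the background were set to 0.01 of the median, a level of -6.64. A transcript was taken as detected in a group when it was above background on at least 0.75 of its arrays (15 of 19 newborn, 6 of 8 adult or old). A transcript was called when the adjusted p was under 0.01 in the fit over all transcripts (limma, Benjamini-Hochberg), the change was at least 2-fold, and it was detected in a group compared. Between 24484 and 28361 transcripts were above background on the newborn arrays, 25273 to 28020 on the adult and 25275 to 27426 on the old ones. The array medians by which signals were divided ran from 42.1 to 87.7 on newborn arrays. They were 81.6 to 162 on adult and 37.1 to 55.3 on old arrays. The part of these medians in the age differences was not tested. The adult arrays were scanned on days 1 and 2, L1 and the old rats together on day 3, and the other litters on days 4 and 5. Age and scan day therefore cannot be told apart, except between L1 and the old rats, whose values within day 3 are given beside the others. In such tissue extracts, fewer cells of a type and less RNA per cell cannot be told apart.

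Of the 67 genes, 35 were detected at some age and 23 at all ages, with 26 in the pups, 28 in the adult rats and 33 in the old. Cyp1a2 is left out of the adult and the all-age counts, because flagged spots left it on 4 of 8 adult arrays, although its second oligonucleotide was above background on all 8. The 32 that were detected at no age held the enzymes typical of other organs. They included all 7 steroid hormone genes (Cyp11a1, Cyp11b1, Cyp11b2, Cyp11b3, Cyp17a1, Cyp19a1 and Cyp21a1, which make corticosteroids, androgens and estrogens in the adrenal gland and gonads). They also included Cyp7a1 and Cyp8b1 of hepatic bile acid synthesis, Cyp24a1, which breaks down vitamin D, Cyp46a1, which hydroxylates cholesterol in the brain, and Cyp2r1, a vitamin D 25-hydroxylase placed by its number in family 2. The rest belonged to families 1 to 4: Cyp1a1, Cyp2a1, Cyp2c7, Cyp2c11, Cyp2c12, Cyp2c13, Cyp2c22, Cyp2c23, Cyp2c65, Cyp2d2, Cyp2d3, Cyp2d5, Cyp2w1, Cyp3a2, Cyp3a18, Cyp3a23-3a1, Cyp3a62, Cyp4a3, Cyp4a8 and Cyp4x1. Of the 32 genes, 12 were above background on none of the 35 arrays, Cyp19a1, Cyp7a1, Cyp2c12 and Cyp2c23 among them.

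Where P450 transcripts differed with age, most were lower in the younger rats. In newborn against adult rats, 13 of the 79 were lower in newborn rats (16.5%, with 7.42% of all transcripts called in that direction) and 3 were higher (3.8%, with 9.87% of all). In newborn against old rats, 22 were lower in newborn (27.8%, with 7.26% of all) and 3 higher (3.8%, with 7.47% of all). In adult against old rats, 15 were lower in adult (19.0%, with 5.66% of all) and 2 higher (2.53%, with 4.24% of all). Within scan day 3, 23 were lower in L1 than in old rats (29.1%, with 7.34% of all) and 2 higher (2.53%, with 6.82% of all). Counted as genes, 10 were lower and 2 higher in newborn than in adult rats, 18 lower and 2 higher in newborn than in old rats, and 13 lower and 1 higher in adult than in old rats. These comparisons share their groups, so the counts are not independent of each other.

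The 59 transcripts of families 1 to 4 made up most of the calls. Of these 59, 11 were lower in newborn than in adult rats (18.6%), 20 lower in newborn than in old rats (33.9%) and 13 lower in adult than in old rats (22.0%). Of the 19 transcripts of the steroid, sterol and retinoid families, 2 were lower in each of these comparisons (10.5%). The median log2 change of families 1 to 4 was -0.05 between newborn and adult, -0.85 between newborn and old and -0.69 between adult and old rats, against 0.10, -0.04 and -0.13 for all transcripts. In the steroid, sterol and retinoid families these medians were 0.09, -0.45 and -0.18. In these families 12 of the 19 transcripts were detected at no age, against 24 of the 59 in families 1 to 4, and a call needs detection. Over transcripts detected in a group compared, the medians of families 1 to 4 were -0.29, -1.35 and -0.80 in the same order. Those of the steroid, sterol and retinoid families were -1.06, -0.65 and -0.12. The difference between the classes was not tested. After the normexp background correction with quantile scaling, the medians of families 1 to 4 were -0.070 between newborn and old and -0.059 between adult and old rats, and those of the steroid, sterol and retinoid families -0.056 and -0.0085.

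**Figure D1:**
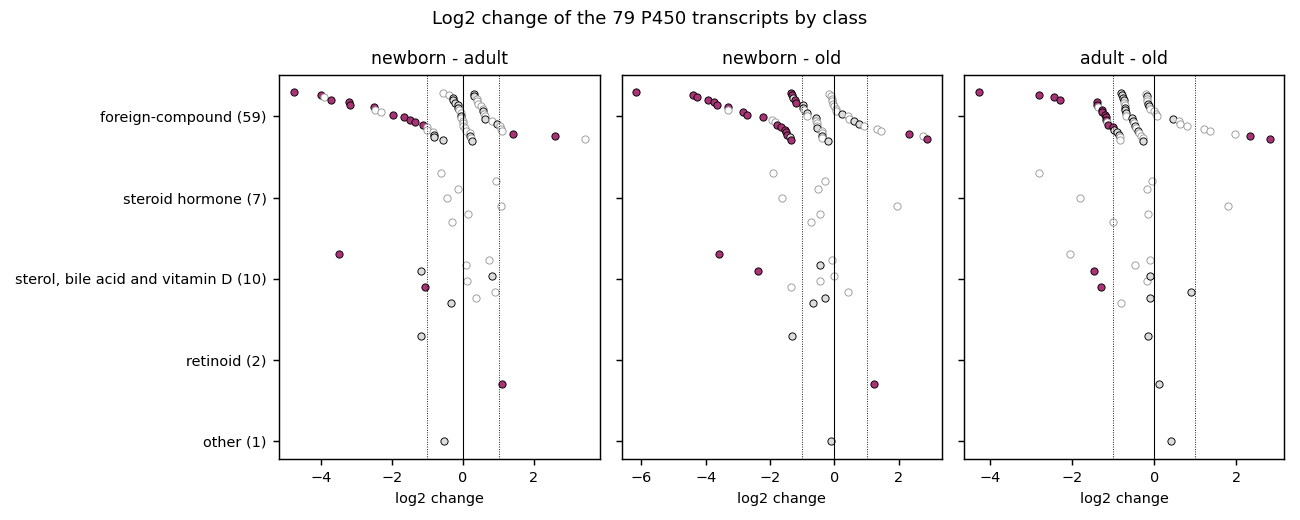
Log2 change of the 79 P450 transcripts (x axis) by class (y axis, number of transcripts in brackets) in newborn minus adult, newborn minus old and adult minus old rats. Purple points were called, grey points with a black edge were detected without a call, white points were not detected, and dotted lines mark 2-fold; the called points lie mostly left of 0, and no steroid hormone transcript was called.

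In 10 genes the level was lower in newborn than in both adult and old rats: Cyp1a2, Cyp2b21, Cyp2e1, Cyp2g1, Cyp2j3, Cyp3a9, Cyp4b1, Cyp4f4, Cyp27a1 and Cyp39a1. The first of them is Cyp1a2, which oxidises caffeine and aromatic amines and is best known from the liver. Its levels ran from 3.19 to 4.85 in the 19 pups with a median of 4.18, stood at 8.02, 7.85 and 7.61 in adult rats 14, 15 and 16, and at 8.38, 8.34, 8.22 and 8.57 in the old rats 17 to 20. Adult rat 13 has no value because its spots were flagged as non-uniform. No pup came near the lowest adult rat, and Cyp1a2 was 13.2-fold lower in newborn than in adult rats (log2 change -3.72 ± 0.23 SE, adjusted p = 3.81e-12) and 19.4-fold lower than in old rats (adjusted p = 7.88e-14). Adult and old rats differed by -0.55 (log2, adjusted p = 0.129).

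Cyp2e1, which oxidises ethanol, acetone and other small solvents, was spread widely among pups. The pups ran from -0.82 to 3.21 with a median of 1.73, the adult rats were at 4.16, 4.97, 4.31 and 4.99, and the old rats at 5.98, 4.79, 5.10 and 5.38. Newborn and adult rats did not overlap, with Cyp2e1 9.33-fold lower in newborn than in adult rats (adjusted p = 1.83e-08) and 15.2-fold lower than in old rats (adjusted p = 9.66e-10). Cyp3a9, a steroid-hydroxylating member of family 3, ran from 2.68 to 4.47 in pups, from 6.66 to 6.96 in adult and from 6.86 to 6.99 in old rats. It was 9.10-fold lower in newborn than in adult rats (adjusted p = 1.26e-15), and adult and old rats overlapped (log2 difference -0.13, adjusted p = 0.595).

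Cyp2g1, a form largely restricted to the olfactory mucosa, was already at 6.17 to 8.11 in pups (median 7.26). The adult rats were at 9.22, 9.03, 9.19 and 8.99 and the old rats at 9.89, 9.85, 9.69 and 10.02. Every pup was under every adult and old rat, at 3.90-fold (adjusted p = 9.33e-08) and 6.59-fold (adjusted p = 6.17e-10). Cyp4f4, whose family hydroxylates leukotrienes and fatty acids, was at 6.45 ± 0.41 (SD, n = 4 litters) in the pups, 7.59 ± 0.07 (n = 4) in the adult rats and 8.12 ± 0.20 (n = 4) in the old. It was lower in newborn than in adult (adjusted p = 2.89e-06) and old rats (adjusted p = 9.87e-09), and the step between adult and old rats was -0.53 (adjusted p = 0.0472).

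In Cyp2b21, Cyp4b1 and Cyp27a1 all 3 ages were called apart, in the order newborn, adult, old. Cyp2b21, a member of the Cyp2b family of the rat, was at 3.61 to 5.13 in pups, at 6.84, 6.83, 7.02 and 6.88 in adult rats and at 8.07, 8.03, 7.78 and 8.27 in old rats. The groups did not overlap, and Cyp2b21 was 5.71-fold lower in newborn than in adult rats (adjusted p = 9.05e-12) and 2.21-fold lower in adult than in old rats (adjusted p = 0.000164). Cyp4b1, which turns 4-ipomeanol and some aromatic amines into reactive products in the airways, was at 3.93 to 5.6 in pups, 6.32 to 6.45 in adult and 7.36 to 7.85 in old rats. It was lower in newborn than in adult rats (log2 change -1.65, adjusted p = 4.20e-08) and changed by -1.19 between adult and old rats (adjusted p = 0.000243).

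**Figure D2:**
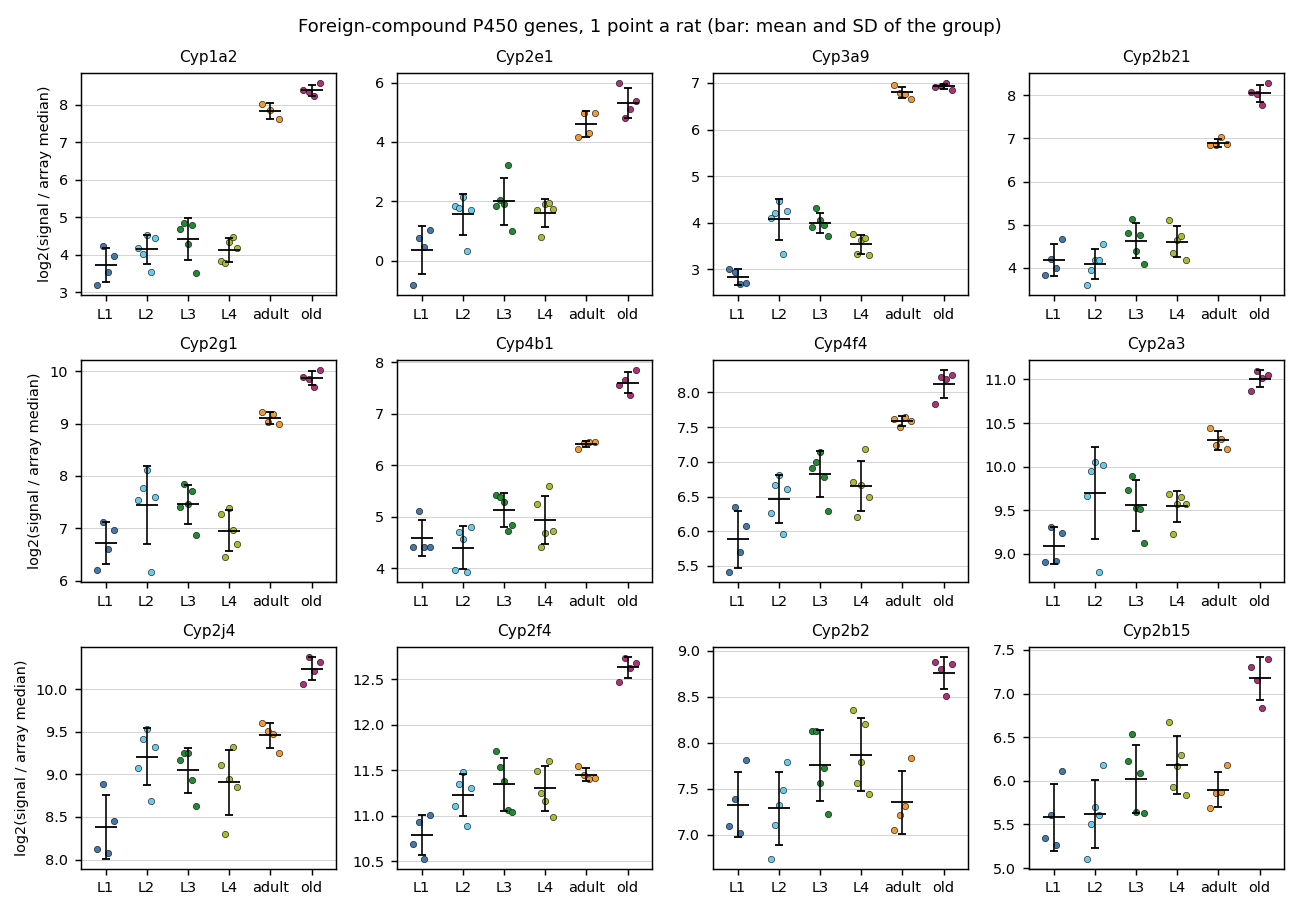
Level (log2 of signal over array median, y axis) of 12 foreign-compound P450 genes in litters L1 to L4, adult and old rats (x axis), 1 point a rat, with bars for the mean and SD of the group. In Cyp1a2, Cyp2e1, Cyp3a9, Cyp2b21 and Cyp2g1 every pup lies under every adult rat, while in Cyp2f4, Cyp2b2 and Cyp2b15 newborn and adult rats lie together under the old ones.

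The promoters of 3 of the genes that were lower in newborn than in old rats are shown: Cyp1a2 and Cyp2e1, which were lower in newborn than in adult rats as well, and Cyp2a3, which belongs to the classical olfactory forms. A promoter was taken from RefSeq (assembly GRCr8) for 53 of the 67 genes as the 250 bases before the start. Capitals mark TTGGC or its complement GCCAA, the short motif of the nuclear factor I proteins, which have been linked to P450 genes of the olfactory mucosa. The Cyp1a2 promoter lies at chr8:66978150-66978399 on the minus strand, that of Cyp2a3 at chr1:91299334-91299583 on the plus strand and that of Cyp2e1 at chr1:205269717-205269966 on the plus strand.
Cyp1a2: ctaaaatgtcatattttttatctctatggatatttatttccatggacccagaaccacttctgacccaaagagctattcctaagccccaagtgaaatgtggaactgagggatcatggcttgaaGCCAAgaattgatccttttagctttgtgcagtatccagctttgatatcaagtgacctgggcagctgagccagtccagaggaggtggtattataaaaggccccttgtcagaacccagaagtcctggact
Cyp2a3: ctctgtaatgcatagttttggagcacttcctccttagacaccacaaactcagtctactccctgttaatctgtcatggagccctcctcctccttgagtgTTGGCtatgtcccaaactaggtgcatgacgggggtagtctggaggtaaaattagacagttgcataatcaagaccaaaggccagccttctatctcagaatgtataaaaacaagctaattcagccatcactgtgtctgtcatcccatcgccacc
Cyp2e1: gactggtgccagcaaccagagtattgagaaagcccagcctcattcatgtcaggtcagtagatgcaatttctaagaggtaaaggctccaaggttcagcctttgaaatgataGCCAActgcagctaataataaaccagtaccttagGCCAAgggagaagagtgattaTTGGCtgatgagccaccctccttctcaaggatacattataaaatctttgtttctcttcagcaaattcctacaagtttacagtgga

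The short motif begins 128 bases before the start in Cyp1a2, 152 in Cyp2a3, and 140, 106 and 85 in Cyp2e1. On either strand it was found in 34 of the 53 P450 promoters, in 12 of the 16 belonging to genes lower in newborn than in old rats, and in 40.3% of 33469 promoters of the rat in RefSeq. The full nuclear factor I palindrome was in 12 of those promoters and in 0 of the P450 ones. The core of the element bound by the aryl hydrocarbon receptor, GCGTG, was in 15 of 53 P450 promoters, in 1 of the 16 and in 25.9% of all, and the TATAAA box was in 16 of 53, 4 of 16 and 12.9%. These motifs do not overlap in the letters printed, and a match is a description of the letters and not a site in use.

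In 6 genes both newborn and adult rats were lower than old rats, with no call between newborn and adult: Cyp2b2, Cyp2b3, Cyp2b15, Cyp2c37, Cyp2c55 and Cyp2f4. Cyp2f4, the rat counterpart of the naphthalene-oxidising mouse Cyp2f2, ran from 10.53 to 11.71 in pups and stood at 11.55, 11.45, 11.40 and 11.41 in adult rats and at 12.48, 12.74, 12.63 and 12.68 in old rats. Pups and adult rats overlapped (log2 change -0.29, adjusted p = 0.0455), while the old rats stood above all others, with a change of -1.46 from newborn (adjusted p = 3.54e-10) and -1.18 from adult rats (adjusted p = 1.30e-06). With normexp and quantile scaling this pattern changed, as Cyp2f4 was then called between newborn and adult rats (log2 change -1.07) and not between adult and old rats (-0.40). Cyp2b2, an enzyme induced by phenobarbital in liver, followed the same pattern at 7.56 ± 0.29 (SD, n = 4 litters) in the pups, 7.35 ± 0.34 (n = 4) in the adult rats and 8.76 ± 0.17 (n = 4) in the old. Cyp2b15 did so at 5.85 ± 0.30, 5.90 ± 0.20 and 7.17 ± 0.24. Both were lower in newborn than in old rats (adjusted p = 9.65e-06 and 1.11e-06) and lower in adult than in old rats (adjusted p = 5.06e-05 and 8.24e-05). Cyp2b2 was read by 4 oligonucleotides, and the calls of newborn and of adult against old rats differed among them. At its weakest reading pups ran from 1.45 to 3.49, adult rats from 3.18 to 3.62 and old rats from 3.33 to 3.75. Adult and old rats thus overlapped there.

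Cyp2a3, which oxidises coumarin and tobacco nitrosamines, and Cyp2j4, which acts on arachidonic acid and retinal, climbed in smaller steps. The Cyp2a3 level was 8.80 to 10.05 in pups, 10.20 to 10.45 in adult and 10.87 to 11.10 in old rats, and only newborn against old passed the 2-fold limit (log2 change -1.54, adjusted p = 1.22e-08). Its other steps were -0.83 (adjusted p = 6.82e-05) and -0.71 (adjusted p = 0.00597). The first of them was called at -1.72 with quantile scaling and at -1.44 with normexp and quantile scaling, and that of Cyp2j4 likewise at -1.40 and -1.19. Cyp2j4 was 8.07 to 9.54 in pups, 9.25 to 9.60 in adult and 10.06 to 10.37 in old rats, with a change of -1.36 between newborn and old (adjusted p = 1.26e-07). Cyp2s1, a form of surface epithelia, stood at 0.82 ± 0.14, 0.95 ± 0.17 and 1.67 ± 0.08 and never reached 2-fold.

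Some genes came above background mainly in the old rats. Cyp2c55 was above background on 8 of 8 old arrays, 1 of 8 adult and 4 of 19 newborn arrays, at -0.32, -0.69, -0.32 and -0.53 in the old rats and at -6.59, -2.42, -6.28 and -3.72 in the adult ones. Cyp2c37 was above background on 8 of 8 old, 2 of 8 adult and 6 of 19 newborn arrays, at 0.25, -0.01, -0.31 and -0.64 in old and -3.13 to -1.89 in adult rats. Cyp2b3 was above background on 7 old, 0 adult and 5 newborn arrays, and was at least 1.89-fold higher in old than in adult rats (adjusted p = 0.000109). Of the 5 newborn arrays 3 were of L1, which shares scan day 3 with the old rats. Cyp2c37 stood at -1.74 to -1.25 in L1 and at -4.97 to -1.11 in the other litters. The part of the scan day in these genes was not tested. Both members of the arachidonic acid and steroid metabolising Cyp2c family were lower in adult than in old rats, Cyp2c37 with an adjusted p of 0.000912 and Cyp2c55 with one of 0.00363. The Cyp2c55 call between adult and old rats was lost without adult rat 13 or adult rat 15 (adjusted p = 0.0186 and 0.0165), with the values of the authors' table (adjusted p = 0.0252), with the floor set before scaling (adjusted p = 0.0606), with the methods' t-test (adjusted p = 0.0173) and, by size, with normexp and quantile scaling (log2 change -0.61). Between newborn and old rats it was lost with the floor set before scaling (adjusted p = 0.033) and with normexp and quantile scaling (log2 change -0.61). The Cyp2b3 call between newborn and old rats was lost when each litter entered as its mean (adjusted p = 0.0113), with the methods' t-test (adjusted p = 0.026) and with normexp and quantile scaling (log2 change -0.25). The last setting also removed the Cyp2b3 call between adult and old rats (-0.36). It likewise removed those of Cyp2c37 between adult and old (-0.53) and between newborn and old rats (-0.50).

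Of the 13 genes lower in adult than in old rats, Cyp27b1, Cyp2b12, Cyp4a1 and Cyp4f6 were not called between newborn and old rats. For 2 of them this rests on the setting. Cyp2b12, at -0.98, was called with the 75th percentile (-1.04), quantile scaling (-1.0) or without any 1 of 6 rats. Cyp4a1, at -1.37, was called with the 75th percentile (adjusted p = 0.00942), litter means (adjusted p = 0.00494), the rat as a random block (adjusted p = 0.00783) or without L2 rat 21 (adjusted p = 1.86e-05). Cyp2b12, a form described from skin glands, was at 2.66, 2.84, 2.59 and 3.18 in adult and 4.32, 4.05, 3.82 and 4.19 in old rats (log2 change -1.28, adjusted p = 4.75e-05). Cyp4f6 was at 4.44, 4.45, 4.39 and 4.62 in adult and 5.48, 5.56, 5.41 and 5.49 in old rats (log2 change -1.01, adjusted p = 2.41e-05). Cyp4a1, a fatty acid omega-hydroxylase of the peroxisome proliferator response, was above background on 1 of 8 adult and 7 of 8 old arrays (log2 change -2.45, adjusted p = 0.00187), so the size of its change rests mostly on adult values at background. The 17 transcripts called between adult and old rats were 9 with quantile scaling and 2 with normexp and quantile scaling. With quantile scaling the changes of Cyp27a1 (-0.95), Cyp2b2 (-0.89), Cyp2b15 (-0.85), Cyp4b1 (-0.75), Cyp2b21 (-0.68) and Cyp2f4 (-0.55) kept their direction under 2-fold. Of the other genes of families 1 to 4 4 were detected without a call between ages, namely Cyp2d4 (3.33, 2.37 and 3.10 from the youngest to the oldest), Cyp2u1 (-0.99, -1.30 and -1.76), Cyp4f1 (-1.5, -1.89 and -0.97) and Cyp4f5 (0.98, 1.27 and 1.54).

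A run of genes from Cyp2a to Cyp2t lies together on chromosome 1, at chr1:81090250-82310934 in the rn3 coordinates of the array. Of these 12 genes, Cyp2a1, Cyp2a2, Cyp2a3, Cyp2b2, Cyp2b3, Cyp2b12, Cyp2b15, Cyp2b21, Cyp2f4, Cyp2g1, Cyp2s1 and Cyp2t1, 11 were detected. Of the 12, 7 were lower in newborn than in old rats (7.26% of all transcripts) and 6 lower in adult than in old rats (5.66% of all), and 1 neighbour, Cyp2t1, was higher in newborn than in adult rats. The other clusters differed in how many of their genes were detected. Of 5 Cyp2c genes placed by the array coordinates in a run on chromosome 1 only Cyp2c55 was detected. Of 4 Cyp2d genes on chromosome 7 only Cyp2d4 was, and of 4 placed Cyp3a genes on chromosome 12 only Cyp3a9. All 4 Cyp4f genes on chromosome 7 and both Cyp2j genes on chromosome 5 were detected. Cyp2c7, Cyp2c12, Cyp2c13, Cyp2c37 and Cyp3a62 were not placed in these runs and are not counted here, although Cyp2c37 was detected in the old rats. Of 5 genes of the Cyp4a, Cyp4b and Cyp4x cluster on chromosome 5, Cyp4a1 and Cyp4b1 were detected.

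Cyp2t1, Cyp26b1 and Cyp1b1 ran the other way. Cyp2t1, a family 2 member of unknown substrate, was at 4.05 to 5.99 in pups, at 3.49, 3.55, 3.69 and 4.02 in adult and at 4.55, 4.59, 4.30 and 4.53 in old rats, and was higher in newborn than in adult rats (log2 change 1.41, adjusted p = 6.60e-09). Cyp26b1, which breaks down retinoic acid, ran from 3.66 to 5.28 in pups, from 3.24 to 3.73 in adult and from 2.91 to 3.67 in old rats. Its highest adult rat and lowest pup overlapped, and the changes of 1.10 from adult (adjusted p = 1.08e-06) and 1.22 from old rats (adjusted p = 3.06e-07) were called. The call against adult rats was lost with the 75th percentile (0.97) and with quantile scaling (0.93). Within scan day 3 Cyp26b1 was not called, with L1 rats at 3.66, 4.46, 3.92 and 4.22 against 2.91 to 3.67 in the old rats. Cyp1b1, which also oxidises retinoids and estrogens, was above background on all 19 newborn and 8 adult arrays and on none of the 8 old ones. The adult rats stood at -0.98, -0.31, -0.43 and 0.06 and the old rats at -2.36, -3.84, -2.49 and -2.31. Cyp1b1 exceeded its old level at least 4.89-fold in newborn (adjusted p = 9.13e-10), at least 3.32-fold in adult (adjusted p = 2.76e-06) and at least 2.42-fold in L1 rats (adjusted p = 4.09e-05). These bounds hold for the main scaling only. With normexp and quantile scaling the Cyp1b1 calls were lost, at log2 changes of 0.77, 0.57 and 0.35 in the same order.

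Cyp1a1, the classical target of the aryl hydrocarbon receptor, was detected in no group. It was above background on 4 of the 8 adult arrays and on no newborn or old array, and these were the arrays of rats 13 and 14. The level was -0.49 and -0.84 in adult rats 13 and 14, which were scanned on day 2, and -2.74 and -2.72 in rats 15 and 16, which were scanned on day 1. The part of the scan day in this split was not tested.

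In the sterol and retinoid families 7 genes were detected. Cyp27a1, the mitochondrial sterol 27-hydroxylase of bile acid synthesis, was at 3.53 to 4.57 in pups, at 5.30, 5.12, 5.18 and 4.96 in adult rats and at 6.31, 6.45, 6.36 and 6.68 in old rats. The 3 ages did not overlap, at 2.09-fold between newborn and adult (adjusted p = 3.74e-08), 5.18-fold between newborn and old (adjusted p = 5.74e-14) and 2.48-fold between adult and old rats (adjusted p = 2.18e-07). Cyp27b1, which makes the active form of vitamin D, was lower in adult rats (-0.87, -0.49, -0.34 and -0.64) than in old ones (1.33, 1.15, 0.78 and 0.30), with a log2 change of -1.48 (adjusted p = 0.000116).

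Cyp39a1, an oxysterol 7-alpha-hydroxylase, was above background in none of the 19 pups, on 7 of 8 adult and on 6 of 8 old arrays. It was at least 1.87-fold higher in adult (adjusted p = 4.48e-05) and at least 2.03-fold higher in old rats (adjusted p = 3.53e-05) than in newborn rats. The newborn against old call did not survive leaving out old rat 17 or 20 (log2 change -3.56 and -3.50, adjusted p = 0.000289 and 0.000341). Size and adjusted p still passed there, and the call was lost by the detection rule. With normexp and quantile scaling both Cyp39a1 calls were lost, at -0.39 between newborn and adult and -0.30 between newborn and old rats. Cyp51, the lanosterol demethylase of cholesterol synthesis, stood at 4.80 ± 0.42 (SD, n = 4 litters), 5.14 ± 0.04 (n = 4) and 5.25 ± 0.15 (n = 4), within 2-fold at all ages. Cyp20a1, an orphan outside these classes, was as even, at 4.28 ± 0.15, 4.81 ± 0.18 and 4.40 ± 0.11.

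The other retinoic acid hydroxylase, Cyp26a1, varied more between pups than between ages. It was above background on every array, but its level ran from -0.04 to 6.94 in pups with a median of 0.85, against 2.98 ± 0.40 (SD, n = 4) in adult and 3.14 ± 0.22 (n = 4) in old rats. Litter mates differed widely, with 4.98, 1.43, 6.94 and 0.85 in the L1 pups 9, 10, 11 and 12. No comparison of Cyp26a1 between ages or litters passed the threshold (adjusted p = 0.213 for newborn against adult, 0.159 for newborn against old and 0.0867 among litters).

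**Figure D3:**
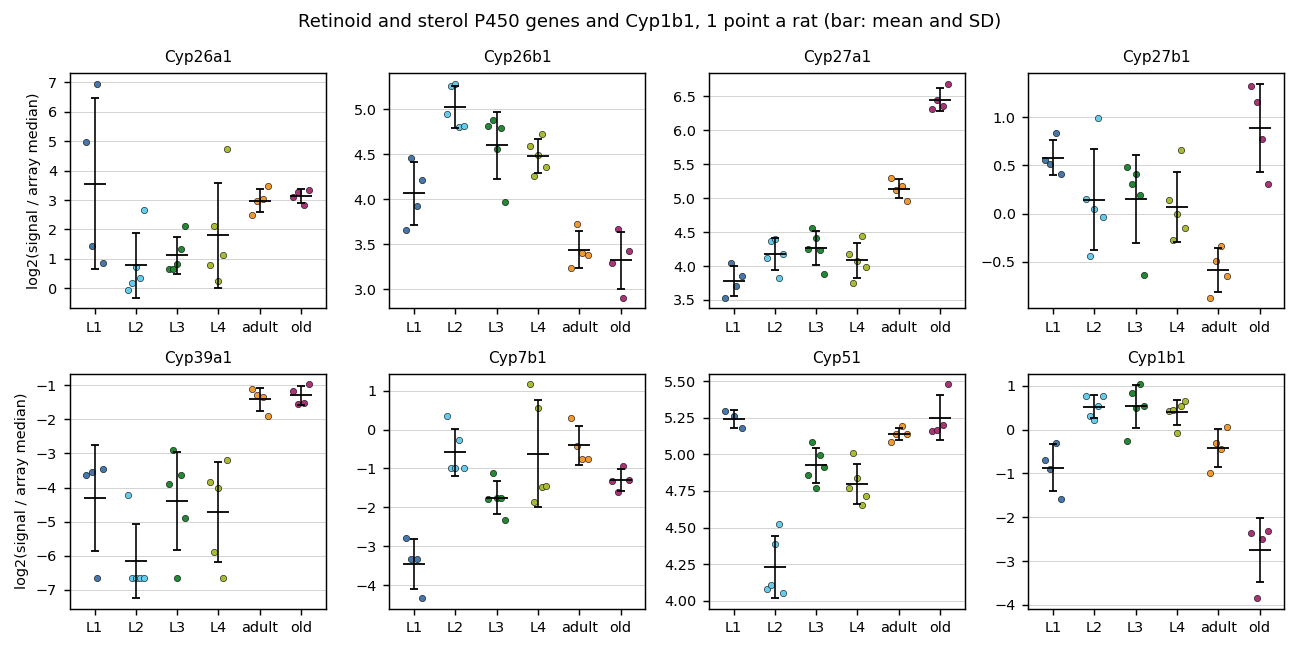
Level (log2 of signal over array median, y axis) of Cyp26a1, Cyp26b1, Cyp27a1, Cyp27b1, Cyp39a1, Cyp7b1, Cyp51 and Cyp1b1 in litters L1 to L4, adult and old rats (x axis), 1 point a rat, with bars for the mean and SD of the group. Cyp26a1 spans -0.04 to 6.94 among pups, Cyp27a1 climbs at each age, and Cyp1b1 is lowest in the old rats.

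Among the 4 litters, 8 P450 transcripts differed (10.1%, with 5.88% of all transcripts called): 1 transcript each of Cyp1b1, Cyp2a2, Cyp2b2, Cyp2b3, Cyp2t1, Cyp3a9, Cyp7b1 and Cyp51, the one of Cyp2b2 not being the transcript that shows the gene. L1 stood apart in Cyp3a9, at 2.83 ± 0.17 (SD, n = 4) against 4.07 ± 0.44, 3.99 ± 0.22 and 3.54 ± 0.20 (n = 5 each) in L2, L3 and L4 (adjusted p = 5.30e-06). The same litter was lowest in Cyp7b1, the oxysterol hydroxylase that also acts on DHEA, at -3.45 ± 0.64 against -0.58 ± 0.60, -1.75 ± 0.43 and -0.62 ± 1.38 (adjusted p = 0.000164). In Cyp51 it was highest, at 5.24 ± 0.06 (n = 3) against 4.23 ± 0.21, 4.92 ± 0.12 and 4.80 ± 0.14 (adjusted p = 5.04e-07). L2 was lowest in Cyp2t1, at 4.41 ± 0.26, and in Cyp2a2 and Cyp2b3, which lay mostly at background in it. Litter and slide largely go together. L1 alone was scanned apart from the other litters, while L2, L3 and L4 each had pups on days 4 and 5. With the slide as a random block 4 transcripts were called. The count was 2 with normexp and quantile scaling, 5 with the 75th percentile and 13 without L2 rat 24, the only L2 pup scanned on day 5.

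Within scan day 3, 15 of the 18 genes lower in newborn than in old rats were also lower in L1 than in old rats (7.34% of all transcripts), the exceptions being Cyp2b3, Cyp2c37 and Cyp2c55. L1 is itself among the 4 litters averaged as newborn, and the same old rats enter both comparisons. This overlap is therefore partly built in and is not an independent check. Cyp1a2 changed by -4.65 (adjusted p = 3.55e-12), Cyp2e1 by -4.95 (adjusted p = 2.96e-09) and Cyp2f4 by -1.84 (adjusted p = 1.16e-09) between L1 and old rats. Cyp2b12, Cyp4f5 and Cyp7b1 were lower in L1 than in old rats without a call for the 4 litters together.

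Several genes were read at more than 1 place, and the readings did not always go together. The oligonucleotides of Cyp2b21 and Cyp2j3 are shown because the first pair gave changes of different size and the second gave different directions. In the rn3 coordinates of the array the Cyp2b21 pair lies at chr1:81659612-81659671 (plus strand) and chr1:81748936-81748995 (minus strand), and the Cyp2j3 pair at chr5:116760465-116760524 and chr5:116749568-116749627 (both minus strand). No rn3 annotation was used here, so their exons are not given. Nothing is marked in capitals.
Cyp2b21 oligonucleotide 1: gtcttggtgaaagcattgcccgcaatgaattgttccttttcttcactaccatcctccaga
Cyp2b21 oligonucleotide 2: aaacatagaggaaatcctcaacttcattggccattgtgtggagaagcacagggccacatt
Cyp2j3 oligonucleotide 1: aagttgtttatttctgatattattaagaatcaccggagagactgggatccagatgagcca
Cyp2j3 oligonucleotide 2: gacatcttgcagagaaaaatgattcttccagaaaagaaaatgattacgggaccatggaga

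At oligonucleotide 2, Cyp2b21 was at -0.64 to 1.13 in pups, 4.91 to 5.42 in adult and 6.32 to 6.78 in old rats, which is 27.1-fold lower in newborn than in adult rats and 71.6-fold lower than in old rats (adjusted p = 1.99e-16 and 3.28e-18). Both readings of Cyp2b21 were thus called the same way in all 3 comparisons, with larger steps at oligonucleotide 2. The second reading of Cyp1a2 also gave the direction of the first, at -3.99 between newborn and adult (adjusted p = 1.68e-15) and -4.39 between newborn and old rats (adjusted p = 4.86e-16).

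Cyp2j3, an epoxygenase of arachidonic acid, was weak at both places. At oligonucleotide 1 it was lower in newborn than in adult (log2 change -1.34, adjusted p = 0.000292) and old rats (log2 change -1.5, adjusted p = 9.76e-05). Both calls were lost with normexp and quantile scaling (log2 change -0.21 and -0.27). At oligonucleotide 2 the adult rats, at -0.74, -1.02, -1.77 and -1.63, were above the old rats, at -4.36, -4.31, -3.0 and -4.74 and at background on all 8 arrays, which makes adult at least 1.83-fold higher. L1 was low there as well, at a mean of -4.99 against -1.80 to -2.23 in the other litters, and L1 and the old rats share scan day 3. Its part in this reading was not tested. Of the 2 Cyp1b1 readings, the second was above background on all 19 newborn arrays, on 3 of 8 adult and 1 of 8 old arrays. It was higher in newborn than in adult rats (log2 change 2.59, adjusted p = 2.10e-08) and both adult and old rats lay mostly at background there, while at the first reading all 8 adult arrays were above it. Both readings put Cyp1b1 higher in newborn than in old rats.

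**Figure D4:**
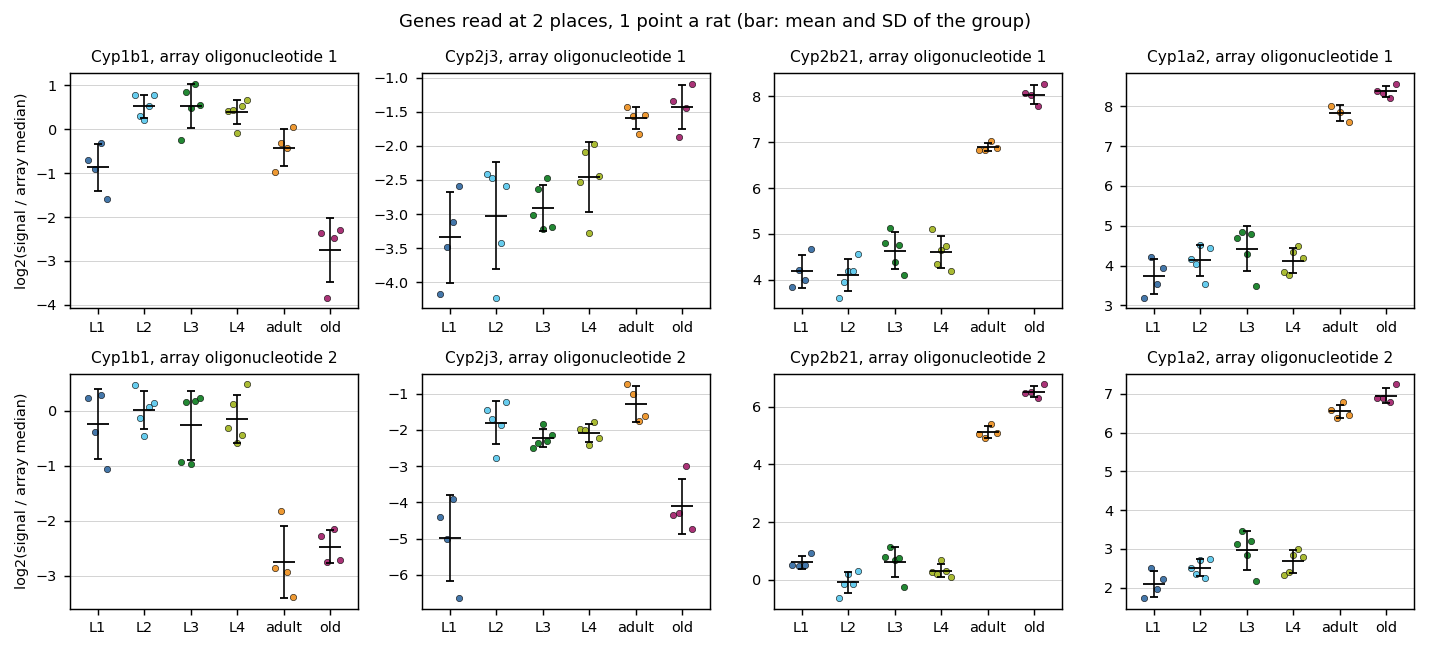
Level (log2 of signal over array median, y axis) at both oligonucleotides of Cyp1b1, Cyp2j3, Cyp2b21 and Cyp1a2 in litters L1 to L4, adult and old rats (x axis), 1 point a rat, with bars for the mean and SD of the group. The upper and lower panels of Cyp2b21 and Cyp1a2 step the same way, while adult rats are high at 1 oligonucleotide of Cyp1b1 and low at the other, and old rats are low only at the second of Cyp2j3.

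P450 families hold near-identical members, so the probes were compared with each other. Of 3081 pairs of the 79 oligonucleotides only 1 shared 45 or more of its 60 bases in place, those of Cyp2a1 and Cyp2a2 with 51. Their letters are shown with the differing bases in capitals, because a signal in either could come from the other transcript.
Cyp2a1: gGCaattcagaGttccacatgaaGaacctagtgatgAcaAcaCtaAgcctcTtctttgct
Cyp2a2: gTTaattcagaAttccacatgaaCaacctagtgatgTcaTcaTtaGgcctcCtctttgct

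Cyp2a1 was above background on no array and Cyp2a2 on 6 of 8 old, 3 of 8 adult and 5 of 19 newborn arrays. Whether a transcript without a probe of its own binds to another member's probe was not assessed.

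The enzymes that work with P450s were looked at through a list of 7 electron donors, 15 of 16 listed receptors and transcription factors that were on the array, 4 genes of heme supply and other enzymes of the first pass. Por, the reductase that supplies microsomal P450s with electrons, stood at 8.0 ± 0.15 (SD, n = 4 litters), 8.33 ± 0.14 (n = 4) and 9.32 ± 0.13 (n = 4) in the order newborn, adult, old, 2.49-fold lower in newborn than in old rats (adjusted p = 1.79e-09). Cytochrome b5 (Cyb5a, 2.46-fold), its reductase (Cyb5r3, 2.34-fold) and Pgrmc1, a heme protein that binds P450s (2.32-fold), were lower in newborn than in old rats too, so 4 of the 7 donors were called (7.26% of all transcripts). Fdxr, which serves mitochondrial P450s, was 3.32-fold higher in newborn than in adult rats and 2.65-fold lower in adult than in old rats. Alas1, the first enzyme of heme synthesis, was at 9.5 ± 0.29, 9.63 ± 0.02 and 10.73 ± 0.09, lower in newborn (adjusted p = 3.14e-09) and in adult rats (adjusted p = 1.94e-06) than in old ones. Of the 4 heme supply genes it alone was called in these comparisons (7.26% and 5.66% of all transcripts). Between newborn and old rats Fech went the other way without a call (log2 change 0.49), and Hmox1 (-0.16) and Hmox2 (-0.91) were not called either.

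Among the other first-pass enzymes, epoxide hydrolase Ephx1 (2.38-fold), the flavin monooxygenases Fmo1 (3.83-fold) and Fmo2 (3.98-fold) and aldehyde oxidase Aox1 (3.48-fold) were lower in newborn than in old rats (7.26% of all transcripts). Ces1d, on the same list, was not called between newborn and old rats (log2 change -0.32, adjusted p = 0.0653). Of the 15 receptors and factors 3 were lower in newborn than in old rats (7.26% of all transcripts): Ppara, the receptor behind Cyp4a induction (2.67-fold), the oxysterol receptor Nr1h3 (2.35-fold) and Cebpb (2.11-fold). Nfix, a nuclear factor I protein, was 3.14-fold higher in newborn than in adult rats and 2.08-fold lower in adult than in old rats. Its relatives Nfia and Nfib were within 2-fold at all ages. Ahr, Nr1i3, Nr1h4 and Nr5a1 were above background on no array.

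**Figure D5:**
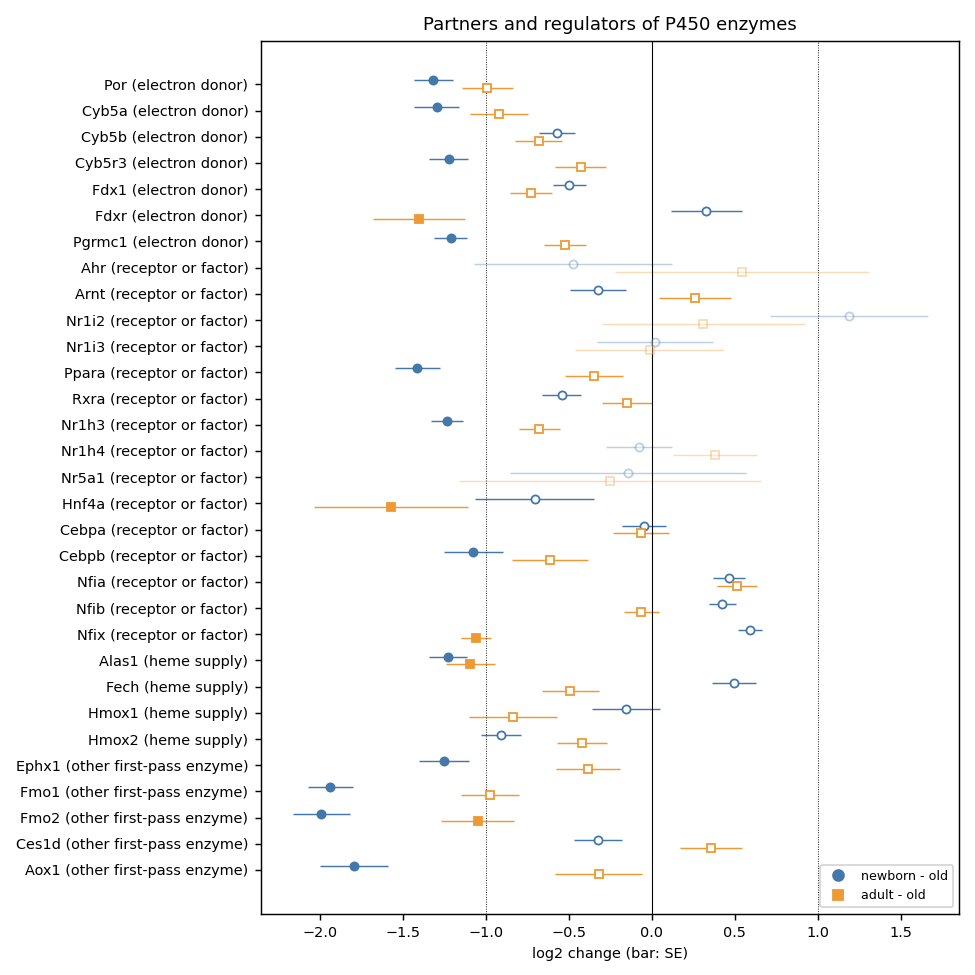
Log2 change of P450 partners and regulators (y axis, with their list) for newborn minus old (circles) and adult minus old rats (squares), with the SE as bars; filled symbols were called, and faded ones belong to genes detected at no age. Most donors and first-pass enzymes lie left of 0, as in Por, Cyb5a, Alas1 and Fmo1.

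Several lists of cell type markers also differed between the ages, not all in the same direction. Summed over 7 of 8 listed sustentacular markers on the array (no P450 among them), the signal was 2500 to 5328 array medians in pups, 4026 to 4468 in adult and 7705 to 8693 in old rats. Of these 7, 3 were lower in newborn than in adult rats, 2 lower in newborn than in old rats and 2 lower in adult than in old rats. Ugt2a1 changed by -3.12 and Sec14l3 by -0.38 between newborn and adult rats, the first called and the second not. For 4 of 5 Bowman's gland markers the sums were 205 to 1342, 1076 to 1202 and 3040 to 3681. Of these 4, Gpx6 was lower in newborn than in adult rats (log2 change -2.43) and Sox9 higher (1.12). Gpx6 and Aqp5 were lower in newborn and in adult rats than in old ones, and Obp1f was called in no comparison. The sums of 8 mature olfactory neuron markers were 218 to 480, 1307 to 1764 and 1976 to 2723, with 8 of 8 lower in newborn than in adult and in old rats. Skeletal muscle markers summed to 6.03 to 209 in pups and to at most 1.31 in the others, and 4 of 4 markers of cycling cells were higher in newborn rats. Bone markers summed to 1978 to 6410 in pups, 1979 to 3627 in adult and 403 to 754 in old rats, with 2 of 4 lower in old than in newborn and in adult rats. Immature olfactory neuron markers summed to 903 to 2025, 591 to 717 and 436 to 549, with 4 of 4 higher in newborn than in old rats. Of 3 red cell markers 2 were on the array, with sums of 238 to 970, 51.7 to 109 and 166 to 379. The part of these cell types in the P450 values was not tested.

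Liver markers stood out in 1 pup. In L1 rat 12, Alb, Fgb and Ttr reached levels of 4.36, 4.54 and 8.64, and the sum of the 4 liver markers was 444 array medians. Rat 12 was also the only pup with Cyp3a2, Cyp2d2 and Cyp2d5, enzymes typical of liver, above background, at 0.01, -1.51 and -0.51. Cyp3a2 was at the floor of -6.64 in the 18 other pups. These genes were chosen after their values were seen, they were detected in no group, and the calls of L1 against old rats numbered 23 to 25 with any 1 rat left out.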

How the data were processed

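RNA from 35 samples of olfactory epithelium was labelled with Cy3 and hybridised to 1-colour Agilent 44K rat arrays by the authors. The deposited files hold the spot intensity after background subtraction and detrending by Agilent Feature Extraction (9.5.1.1 on the 8 adult arrays, 9.5.3.1 on the 27 newborn and old arrays). In comparisons with the adult rats, age and software version therefore cannot be told apart. The authors also deposited a ratio table, in which negative signals were set to 0.01 and values divided by the array median and by a constant for each probe; for 99.8% of its lines it matched the intensities by 1 constant, and it served as an alternative. The number of arrays limits the precision.

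Here, outlier spots were left out, which cost 890 values on 494 probes, the intensity was divided by the array median, floored at 0.01 and put on the log2 scale. The left and right arrays of each older animal entered as their mean, and 6 groups were fitted with limma 3.58.1 (lmFit, eBayes with trend) in R 4.3.3, with the 4 litters averaged as newborn, and p-values adjusted over all transcripts by Benjamini-Hochberg. Litters were compared with the moderated F test. The script was tested on simulated data. The gene named by a comparison was among the 10 with the largest called change in either direction, a P450 known for the olfactory mucosa, or a detected steroid, sterol or retinoid gene. The P450 genes and the lists were chosen with earlier results of these data known. Alternatives were other scalings, background correction, detection rules, fold limits, random blocks for slide and scan day, and leaving out each rat. Replicates are separate rats. A gene of the partner list is not reported here.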

Additional observations from a re-analysis of the deposited data

Results flagged for a closer look

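In 171 groups of 4 or 5 rats, 17 held 1 rat far from the others, where chance alone marks about 1 in 20 groups. At or near background lay Cyp1a1 in L4 rat 34 (level -3.69), Cyp1b1 in old rat 18 (-3.84), Cyp39a1 in L1 rat 11 (-6.64) and L2 rat 21 (-4.23), Cyp4a1 in L3 rat 30 (-2.57), and Cyp2b3 in L1 rat 12 (-1.32), L2 rat 24 (-3.63) and L3 rat 26 (-2.0). Among detected genes, Cyp26a1 stood high in L2 rat 25 (2.68) and Cyp4b1 high in L1 rat 10 (5.11), while Cyp27b1 in L3 rat 30 (-0.63), Cyp2a3 in L4 rat 32 (9.23), and Cyp2e1 in L2 rat 24 (0.33) and L4 rat 32 (0.79) were lower than their litter mates. Cyp4b1 in adult rat 13 (6.32) and Cyp4f4 in old rat 17 (7.83) were lower than the other 3 rats, and Cyp51 in old rat 20 (5.48) was higher. No call of Cyp4b1 or Cyp4f4 turned in direction without these rats.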

How the results depend on the processing

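No called change of a named gene turned in direction under the alternatives run. The median log2 change of the steroid, sterol and retinoid families between newborn and adult rats, 0.09, has no stable sign, at -0.02 with 1 transcript a gene and -0.01 with normexp and quantile scaling. With at least 5-fold asked for, 8 P450 transcripts (16 at 2-fold) were called between newborn and adult, 12 (25) between newborn and old and 5 (17) between adult and old rats. The adult against old count was 9 with quantile scaling, 2 with normexp and quantile scaling and 11 when a transcript had to be expressed in every group. The litter count of 8 was 5 with scaling to the 75th percentile, 2 with normexp and quantile scaling and 4 with the slide as a random block. Leaving out 1 rat at a time gave 16 to 17 calls between newborn and adult, 24 to 27 between newborn and old, 15 to 18 between adult and old, 23 to 25 between L1 and old rats and 6 to 13 among litters, the highest without L2 rat 24. The median log2 change of families 1 to 4 between newborn and old rats was -0.43 with the 75th percentile, -0.769 with quantile scaling, -0.070 with normexp and quantile scaling and -1.35 over detected transcripts. Between adult and old rats it was -0.31, -0.41, -0.059 and -0.80 in the same order, and between newborn and adult rats it was -0.29 over detected transcripts. That of the steroid, sterol and retinoid families was -1.06 over detected transcripts between newborn and adult rats. Fewer transcripts enter the medians over detected ones; the cause of the other shifts was not tested. For the named genes, 1584 of 1681 values kept their side of the threshold under other settings, as did 3115 of 3132 with 1 rat left out. Low signal limits the genes near background, whose levels rest on the floor. No paired analysis was possible because the groups share no rat numbers.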

Other observations

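The 2 sides of the nose of the same adult or old rat differed by a median of 0.11 to 0.29 on the log2 scale over the P450 genes detected at that age (28 in adult, 33 in old rats), depending on the rat. The largest difference was 2.63, in Cyp2a2 of old rat 18, a transcript near background. Between 26 and 36 P450 genes were above background in a single pup, and rat 12 of L1 had 36.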
